A study of Arabidopsis thaliana with 38 samples.

Results

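The comparison described here sets RNA recovered with cold shock protein 1 (CSP1) against polysomal RNA in cold-treated rosettes of one Arabidopsis thaliana line, 35S:HF-RPL18. It uses 6 of the 38 arrays of the series, taken by their labels: 3 arrays of RNA immunopurified with anti-CSP1 (CSP1-IP) and 3 arrays of polysomal RNA. It asks which mRNAs on polysomes were over- or under-represented with CSP1 in the cold. The 38 samples form 16 groups from 3 genotypes of the Col-0 accession, with 2 or 3 biological replicates each, and total, polysomal or CSP1-IP RNA was hybridised to ATH1 arrays. HF-RPL18 plants express a tagged RPL18 ribosomal protein from the constitutive 35S promoter and keep their own CSP1. The comparison line 35S:AtCSP1-FH#11 (CSP1-FH) expresses a tagged CSP1 from the same promoter and has 2 arrays per group. The third genotype is the mutant atcsp1-1, with 2 arrays per group of total or polysomal RNA. Its arrays enter where all 38 arrays were scaled together or shared the spread. Each genotype is represented by a single line. All groups used here came from rosette leaves of 25-day-old plants. Cold-treated plants were kept at 4 °C and about 50 µE of light for 12 h, starting 2 h after lights on, and non-stress plants at 23 °C and about 100 µE. Temperature and light thus changed together and cannot be told apart, and cold below stands for both.

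Polysomal RNA was RNA carrying at least 2 ribosomes, taken from sucrose gradients. CSP1-IP RNA came from leaves cross-linked with 1% formaldehyde for 15 min, and 3 to 6 ng of it was labelled, against an amount of 150, with no unit given, for polysomal RNA. CSP1-IP and polysomal RNA therefore differed in cross-linking, purification and labelled amount at once, and these cannot be told apart in the comparison. An immunopurification from plants without CSP1, or with another antibody, was not analysed here, so RNA held by the beads was not measured. No probe set carries the name CSP1 in the annotation, so the protein's own transcript was not checked.

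Cold shock domain proteins bind single-stranded RNA and act as RNA chaperones that can loosen base-paired stretches. Bacterial members help mRNAs to be translated after a drop in temperature. Arabidopsis CSP1 joins a cold shock domain to glycine-rich stretches with zinc knuckles, and it is known to associate with polysomes.

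All values are log2 expression levels, and a difference is the mean of the CSP1-IP arrays minus the mean of the polysomal arrays. A probe set was called when limma's adjusted p over all 22746 probe sets lay below 0.05. Of these, 1480 (6.51%) were called higher in CSP1-IP RNA and 2916 (12.8%) lower, together 4396 (19.3%). The CSP1-IP arrays did not overlap the polysomal arrays at 9841 probe sets (43.3%), 24% of all being higher and 19.2% lower. Leaving out any 1 polysomal array lowered the counts. Without polysomal array 1, 2 or 3 there were 2118, 2057 or 2663 calls, and higher calls fell to 486, 441 or 651. Without CSP1-IP array 1, 2 or 3 there were 4435, 5548 or 4147 calls, with 1751, 2231 or 1546 higher. Why leaving out a polysomal array cost more calls was not tested. Calls of single genes lost without a polysomal array are to be read beside this general fall.

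The split between directions depended on the scaling. After cyclic loess of all 38 arrays, 1556 probe sets (6.84%) were called higher and 1509 (6.63%) lower, so that the higher share of calls moved from 33.7% to 50.8%. No probe set was called in opposite directions in these fits, and 911 of the 1480 higher calls and 1457 of the 2916 lower calls were kept. The median difference of all probe sets was 0.18 in the deposited values and -0.01 after loess. With the deposited values the median difference ran from 0.51 in the lowest of 10 equal bins of the polysomal level to -1.22 in the highest bin. After loess the same bins had medians of 0.03 and -0.38. In the highest bin 53.4% of probe sets were called lower in the deposited values and 25.4% after loess. In the second highest bin the shares were 38.3% and 16.7%. Lists of strongly expressed genes are therefore set beside the shares of these bins as well as those of all probe sets. Loess values are given for most lists that hold calls.

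**Figure D1:**
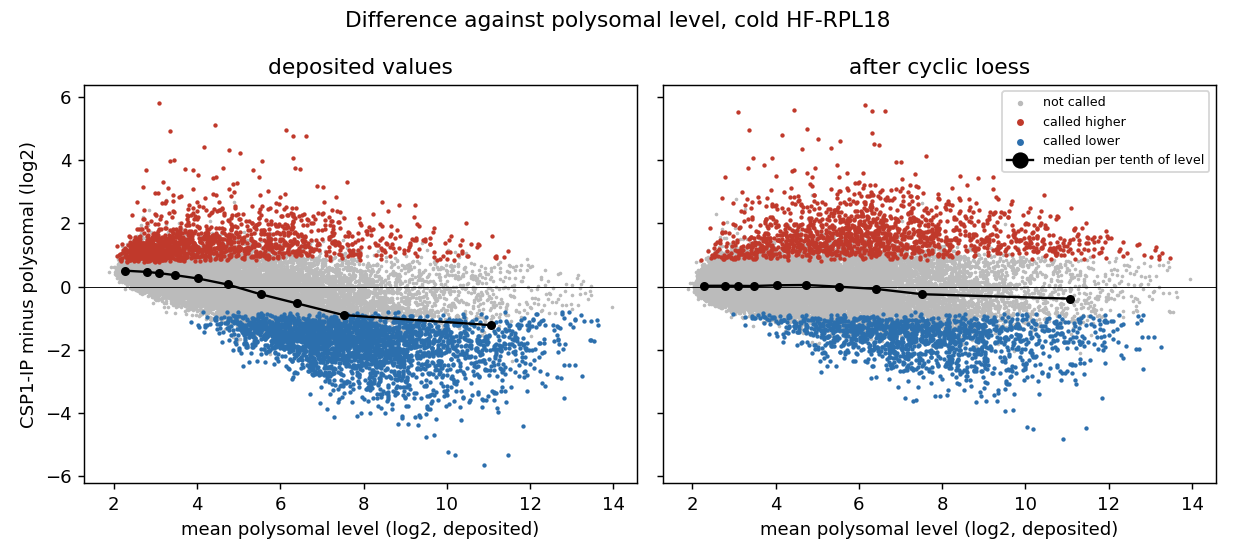
CSP1-IP minus polysomal difference (log2) of each probe set against its mean polysomal level (log2), from the deposited values on the left and after cyclic loess on the right. Red and blue points were called higher and lower, and the black line joins the medians of 10 bins of the polysomal level, which run from 0.51 to -1.22 on the left and from 0.03 to -0.38 on the right.

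The CSP1-IP arrays varied more than the polysomal ones and stood apart in their control probes. The mean SD between replicate arrays was 0.511 in CSP1-IP and 0.25 in polysomal RNA. Over probe sets, array pairs correlated at 0.894 to 0.913 within CSP1-IP and at 0.979 to 0.985 within polysomal RNA. Each CSP1-IP array was closer to the 2 cold CSP1-IP arrays of CSP1-FH than to the other arrays of its own group. These correlations were 0.925 and 0.924 for array 1, 0.945 and 0.957 for array 2, and 0.903 and 0.904 for array 3. With the polysomal arrays, array 1 correlated at 0.868 to 0.879, array 2 at 0.899 to 0.905 and array 3 at 0.838 to 0.855. The 3′ control probe set of GAPDH exceeded the 5′ one by 6.89 to 7.60 on CSP1-IP arrays and by 1.04 to 2.16 on polysomal arrays. For 1 actin control the ranges were 4.53 to 6.39 and 1.57 to 2.66, and for ubiquitin 2.53 to 3.15 and 1.14 to 1.48. Another actin control did not follow, with 2.90 to 3.76 on CSP1-IP and 3.32 to 4.22 on polysomal arrays. A 3′ excess is a usual sign of short RNA or short labelled product. For GAPDH it moved with the RNA pool in both lines (7.44 and 7.52 on the cold CSP1-FH CSP1-IP arrays). Its part in the differences below was not tested.

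Genes were named only from probe sets with 1 annotated gene, and unnamed probe sets with differences as large are left out of the rankings below, such as 245638_s_at at 4.92. AT2G15880, which encodes a pollen-type leucine-rich repeat extensin, had levels of 9.31, 8.44 and 8.98 on the CSP1-IP arrays and 2.71, 3.62 and 2.95 on the polysomal arrays. All CSP1-IP arrays were far above all polysomal arrays. The difference was 5.81 (SE 0.34, limma adjusted p = 0.00028). The mean polysomal level of 3.10 lay below the limit of 3.13 used here for dim probe sets, so no fold is given. Total RNA was also dim for this gene, at 3.27 ± 0.57 (SD, n = 3).

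AT1G69510 encodes a small protein of the cAMP-regulated phosphoprotein (endosulfine) family. Its levels were 11.20, 10.65 and 11.41 with CSP1 and 6.50, 5.97 and 5.96 on polysomes. The groups were clearly separate, with a difference of 4.94 (SE 0.30, limma adjusted p = 0.00028). AT5G47435 encodes a formyltetrahydrofolate deformylase, an enzyme of one-carbon metabolism in mitochondria. It had 10.81, 10.28 and 10.03 with CSP1 against 6.60, 6.46 and 5.85 on polysomes. Total RNA lay between these pools, at 8.56 ± 0.12 (SD, n = 3).

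The 12 annotated genes with the largest higher calls had differences from 5.81 down to 3.30. Besides the 3 above they were AT3G27340 (4.43), AT2G35750 (4.23), the 2-oxoglutarate-dependent dioxygenase family gene AT5G01780 (4.01), AT4G32240 (3.75), AT4G22160 (3.72), AT5G55100 (3.70), AT2G29210 (3.46), AT5G51620 (3.43) and AT3G45160 (3.30). AT5G55100 encodes a protein with a SWAP domain, and AT2G29210 one with a PWI domain, both found in pre-mRNA splicing factors. The mean polysomal level of AT5G55100 was 2.78, below the limit of 3.13 for dim probe sets. Its CSP1-IP arrays read 5.70, 6.13 and 7.58. The same 12 genes were called higher in every alternative setting, and after loess their differences were 3.48 to 5.74. In CSP1-FH, on other arrays, each of the 12 was called higher as well, by 2.47 to 4.57.

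Among the 12 annotated genes with the largest lower calls the plastid gene ndhA came first, while the lowest difference of any probe set was -5.65. The ndhA gene encodes a subunit of the NADH dehydrogenase-like complex of the thylakoid. It had 4.66, 5.54 and 4.39 with CSP1 and 10.49, 10.20 and 9.87 on polysomes. Every CSP1-IP array lay far below every polysomal array, with a difference of -5.32 (SE 0.35, limma adjusted p = 3e-04).

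Proteases of the secretory pathway, subtilases and aspartic proteases, made up 5 of the 12. The subtilase gene AT3G14067 had 3.98, 3.71 and 3.56 with CSP1 and 7.33, 7.86 and 8.31 on polysomes. ARA12, a subtilase known in Arabidopsis for its part in seed coat mucilage, had 5.27, 6.45 and 5.32 with CSP1 and 9.64, 9.33 and 9.68 on polysomes. Neither gene's groups overlapped, and the differences were -4.09 (SE 0.31, limma adjusted p = 0.000501) and -3.87 (SE 0.35, limma adjusted p = 0.00079). APA1, a vacuolar-type aspartic protease, had 7.26, 8.55 and 5.31 with CSP1 against 10.63, 10.92 and 11.00 on polysomes. Its CSP1-IP arrays were far from each other, with array 3 the lowest. The difference was -3.81 (SE 0.68, limma adjusted p = 0.00639).

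The remaining genes were the subtilase gene AT3G14240 (-3.63), the aspartyl protease gene AT3G52500 (-3.63), the armadillo-repeat gene AT4G16490 (-3.86), AT1G62780 (-3.86), the leucine-rich repeat gene DRT100 (-3.78), the lipid-transfer-like gene AT1G62510 (-3.66), the proline-rich protein gene AT4G19200 (-3.66) and the acid phosphatase family gene AT5G44020 (-3.60). All 12 were called lower in every alternative setting, by 2.74 or more after loess, and all 12 were called lower in CSP1-FH. A list of 50 measured subtilases, aspartic and papain-type proteases, drawn up after these values were seen, held 15 lower calls (30%, against 12.8% of all probe sets) and no higher call. It is a description only, with a median of -0.12. The cysteine protease gene AT4G16190 (-3.55) and the papain-type genes AT3G45310 (-2.07) and AT2G21430 (-2.09) were among the 15. After loess 9 of the 50 were called lower, when 6.63% of all probe sets were.

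**Figure D2:**
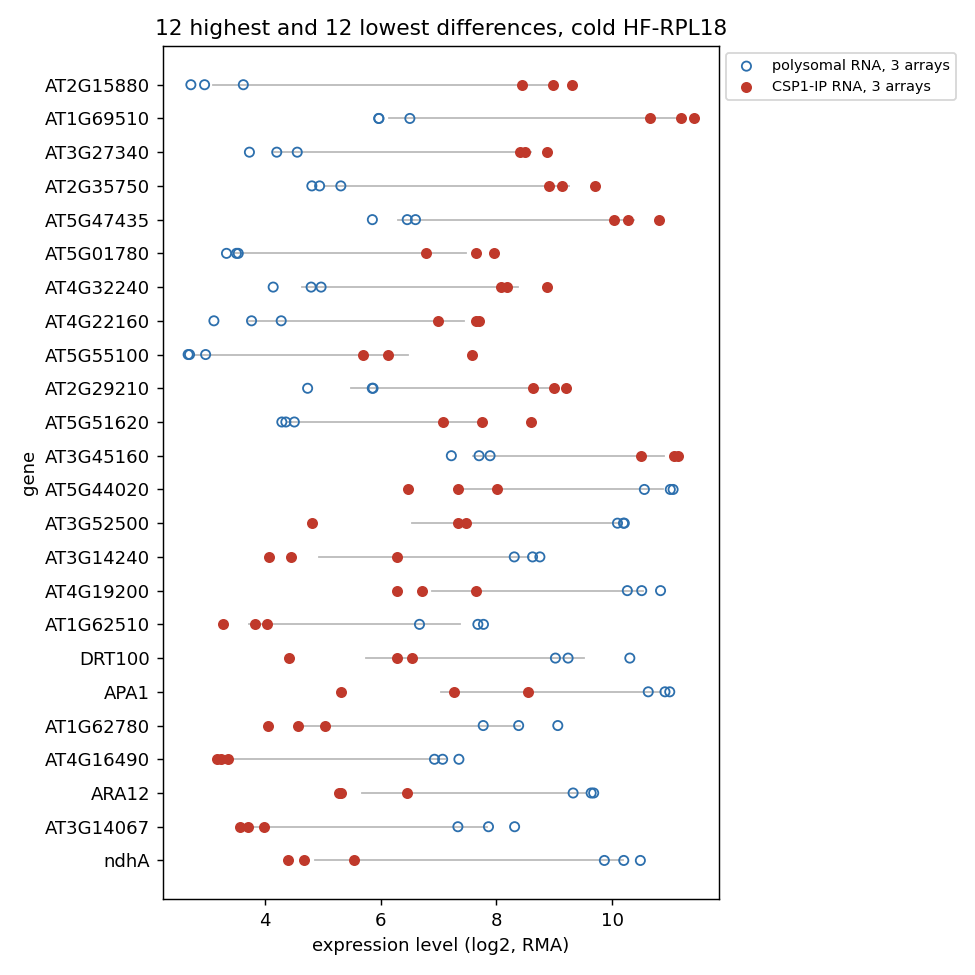
Levels (log2) of the 12 genes with the largest higher and the 12 with the largest lower calls on each of the 3 CSP1-IP arrays (filled red) and 3 polysomal arrays (open blue). The grey line joins the group means, and the groups do not overlap for any of the 24 genes, as the naming rule required.

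Ribosomal protein genes of the cytosol split in both directions. Of 70 measured genes of the large subunit, 12 were called higher and 8 lower, with a median difference of 0.23 against 0.18 over all probe sets. Of 48 genes of the small subunit, 3 were called higher and 9 lower, with a median of -0.12. The backgrounds are the 6.51% higher and 12.8% lower given above, and the members' shares were 17.1% and 11.4% for the large and 6.25% and 18.8% for the small subunit. Both lists had median polysomal levels of 10.0, in the highest bin, where 3.91% of all probe sets were called higher and 53.4% lower. Scaling changed this picture. With loess the shares of all probe sets were 6.84% higher and 6.63% lower, and in the highest bin 13.5% and 25.4%. After loess 32 large-subunit genes were called higher and 3 lower (median 0.84), and 11 small-subunit genes higher and 1 lower (median 0.38), so the sign of the small-subunit median turned. It also turned, to 0.09, without CSP1-IP array 3.

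The large-subunit gene AT2G19740, which encodes an L31 protein, had 10.07, 10.05 and 9.51 with CSP1 and 8.16, 8.10 and 7.54 on polysomes. The groups did not overlap and differed by 1.94 (SE 0.29, limma adjusted p = 0.00308). AT5G56710, another L31 gene, differed by 1.72, the L29 gene AT3G06680 by 1.53 and the L35 gene AT5G02610 by 1.49. Each of these kept its call after loess and in CSP1-FH. Lower calls went to other proteins of the same subunit. The L9 gene AT4G10450 had 7.07, 6.84 and 6.28 with CSP1 and 9.27, 9.12 and 8.94 on polysomes. That is a difference of -2.38 (SE 0.28, limma adjusted p = 0.00144) with no overlap. The L13a gene AT5G48760 followed at -2.36 and the L7a gene AT2G47610 at -1.94. All 3 stayed lower after loess (-1.58, -1.53 and -1.07).

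In the small subunit the higher calls were the S25 gene AT4G34555 (1.5), the S20 gene AT3G47370 (1.09) and the S27 gene AT5G47930 (1.09). The lowest was the S4 gene AT2G17360, with 6.56, 6.23 and 5.69 against 9.47, 9.17 and 8.46. Its difference was -2.87 (SE 0.35, limma adjusted p = 0.00151), and it was the only small-subunit gene still called lower after loess (-2.06). The S2 gene AT3G57490 (-2.16) lost its call after loess of all arrays. The S3a gene AT3G04840 (-1.82) lost it after each rescaling, and without polysomal array 1 or 2.

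Among 13 genes of the acidic stalk, which recruits translation factors to the ribosome, the P0 genes AT2G40010 and AT3G11250 moved apart. AT2G40010 had 7.96, 6.72 and 6.13 with CSP1 and 4.84, 4.13 and 5.01 on polysomes, a difference of 2.28 (SE 0.47, limma adjusted p = 0.0112). AT3G11250 had 6.56, 6.44 and 6.27 against 7.70, 7.69 and 7.67, a difference of -1.26 (SE 0.23, limma adjusted p = 0.00736) that lost its call after rescaling. These are close paralogs, and how far their probes cross-hybridise was not tested. The P3 gene AT4G25890 made up the other lower call at -0.96, just inside the threshold (limma adjusted p = 0.05 after rounding), and it lost that call in 13 of 14 alternative settings. Of the 13 genes 1 was called higher (7.69%) and 2 lower (15.4%), against 6.51% and 12.8% of all probe sets. In the highest bin, which holds the list's median level, the shares were 3.91% and 53.4%. The stalk median was -0.34, and 0.46 after loess. There 3 stalk genes were called higher and 0 lower, against 13.5% and 25.4% of the highest bin.

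Of 13 genes for translation factors and poly(A)-binding proteins, none was called higher and 3 lower (23.1%, against 12.8% of all probe sets). The list's median polysomal level of 8.17 lay at the border of the highest 2 bins, in which 38.3% and 53.4% were called lower. AT5G19510, a subunit of elongation factor 1B, differed by -2.04, the initiation factor 1A gene AT2G04520 by -1.47 and the initiation factor 3 subunit gene AT4G20980 by -1.34. None of the 3 kept its call after loess of all arrays, where the median moved from -0.35 to 0.48. There 3 other members of the list were called higher, against 10.9% and 13.5% of all probe sets in these bins. AT2G04520 also lost its call without each polysomal array in turn, and AT4G20980 without polysomal array 1 or 2.

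**Figure D3:**
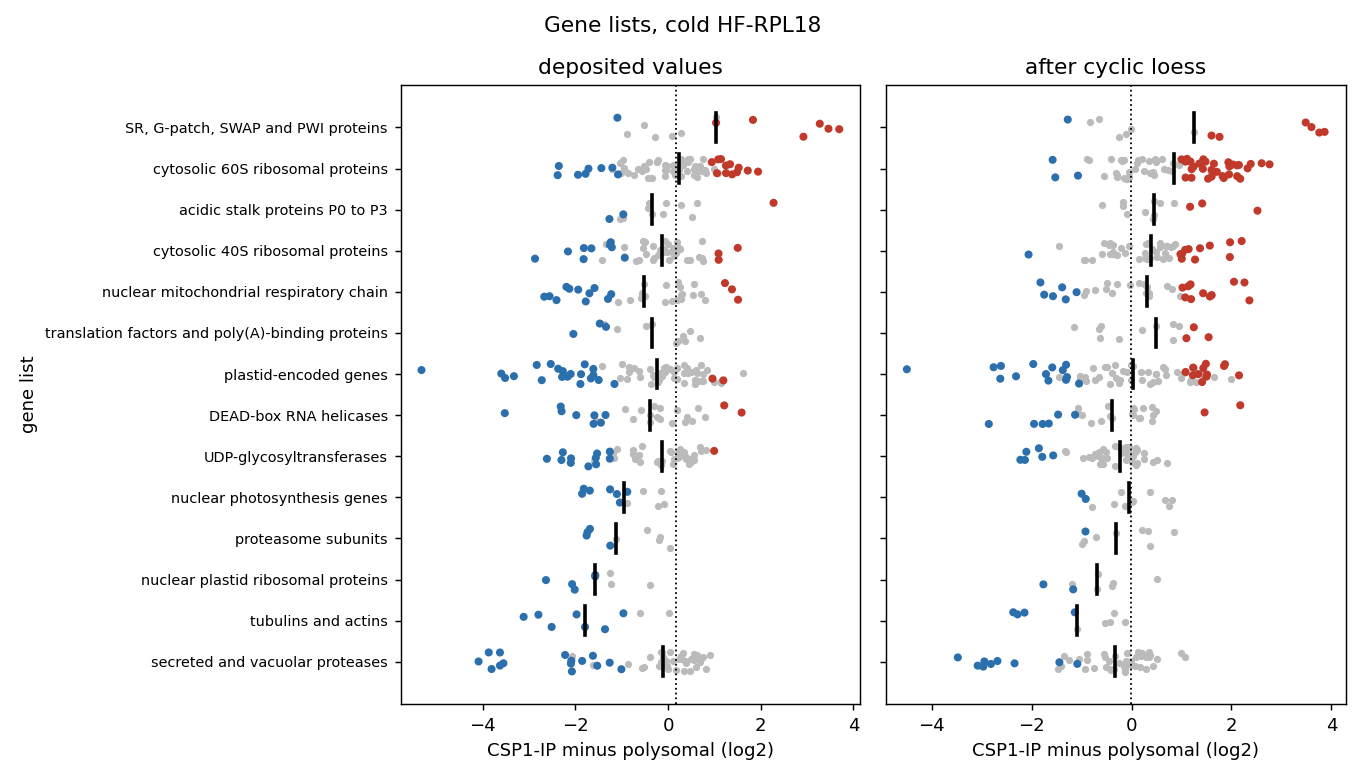
CSP1-IP minus polysomal difference (log2) of each measured member of 14 gene lists, from the deposited values on the left and after cyclic loess on the right. Red and blue points were called higher and lower, grey points were not called, the black bar is the list median and the dotted line the median of all probe sets. The splicing-related and protease lists were drawn up after the values were seen.

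Plastid-encoded genes, whose RNAs are translated inside chloroplasts, were mostly lower or not called with CSP1 in the cold. Of 69 measured genes, 2 were called higher and 21 lower (30.4%, against 12.8% of all probe sets), with a median of -0.24. The list's median polysomal level of 8.29 lay near the border of the highest 2 bins, in which 38.3% and 53.4% of all probe sets were called lower, so the share was not above that of probe sets of like level. The ATP synthase genes atpA and atpB differed by -3.60 (SE 0.29, limma adjusted p = 0.000531) and -3.52 (SE 0.37, limma adjusted p = 0.00107). For atpB the arrays read 9.23, 10.04 and 8.63 with CSP1 and 12.76, 13.12 and 12.56 on polysomes, with no overlap. By complex, 4 of 6 ATP synthase genes, 7 of 15 photosystem II genes, 2 of 6 cytochrome b6f genes and 2 of 5 photosystem I genes were called lower. Of the NADH dehydrogenase-like complex 2 of 10 were called lower, ndhA among them, and the median was -0.06. For ribosomal proteins it was 1 of 7 in the large and 1 of 8 in the small subunit, and for other plastid genes 2 of 8. None of the 4 plastid RNA polymerase genes was called, and their median was 0.54. The 2 higher calls were the ribosomal protein genes rps15 (1.19) and rps4 (0.96). The Rubisco large subunit gene rbcL had 9.10, 10.22 and 8.59 with CSP1 and 10.31, 11.27 and 11.15 on polysomes. That difference of -1.61 (SE 0.45, limma adjusted p = 0.0365) lost its call after loess. The direction of the median depended on scaling: after loess 12 plastid genes were called higher and 14 lower with a median of 0.02. With loess 10.9% and 13.5% of all probe sets in the second highest and highest bins were called higher, and 16.7% and 25.4% lower. In CSP1-FH none was called higher and 13 lower, against 7.2% and 11.4% of all probe sets, with a median of -0.46.

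Nuclear genes for chloroplast proteins held lower calls at shares close to those of all probe sets in the highest bin (53.4%), where both lists had their median level. Of 8 nuclear genes for plastid ribosomal proteins, 5 were called lower (62.5%) and none higher, with a median of -1.57. AT1G64510, a plastid S6 protein gene, had 8.70, 8.08 and 8.09 with CSP1 and 10.98, 10.98 and 10.81 on polysomes. The CSP1-IP arrays were all lower, and the difference was -2.63 (SE 0.27, limma adjusted p = 0.00102). The L3 gene AT2G43030 differed by -2.07 and the L19 gene AT4G17560 by -2.01. After loess 2 of the 8 remained called, when 25.4% of the highest bin were called lower, with a list median of -0.68. Of 12 nuclear photosynthesis genes 7 were called lower (58.3%) and none higher (median -0.96). The light-harvesting genes LHCB4.3 and LHCB4.2 differed by -1.85 and -1.82, and RCA, which encodes the Rubisco activase of leaves, by -1.69. After loess the list's median was -0.06 and only LHCB4.3 (-1) and LHCB4.2 (-0.92) were called.

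Nuclear genes of the mitochondrial respiratory chain were called in both directions. Of 34 probe sets for 33 genes, 3 were called higher (8.82%, against 6.51% of all probe sets) and 11 lower (32.4%, against 12.8% of all probe sets and 53.4% in the highest bin, which holds the list's median level). The median was -0.51. The higher ones were AT5G47890 and AT5G18800 of complex I and AT3G10860 of the cytochrome bc1 complex. AT5G47890 had 10.38, 10.77 and 10.86 with CSP1 and 9.04, 9.16 and 9.28 on polysomes. The groups did not overlap, and the difference was 1.51 (SE 0.25, limma adjusted p = 0.00485). AT3G10860 differed by 1.38 and AT5G18800 by 1.23.

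Lower calls included both subunits of the mitochondrial processing peptidase, which in plants is part of the bc1 complex. MPPBETA had 7.4, 8.15 and 7.17 with CSP1 and 10.28, 10.39 and 10.07 on polysomes, a difference of -2.67 (SE 0.31, limma adjusted p = 0.00134). The alpha-subunit gene AT1G51980 differed by -2.56. The ATP synthase gene AT5G47030 (-2.41) and the cytochrome c1 genes AT3G27240 (-2.19) and AT5G40810 (-2.13) were lower too. After loess 11 members were called higher and 6 lower, against 13.5% and 25.4% of the highest bin, and the median turned to 0.31. All 3 higher and these 5 lower genes kept their calls there. Of 18 probe sets for 11 mitochondrion-encoded genes, nad4L alone was called, higher by 1.49, and it lost the call without polysomal array 1 or 2 and after quantile normalization.

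Among 27 DEAD-box RNA helicases, which unwind RNA duplexes, 8 were called lower (29.6%, against 12.8% of all probe sets) and 2 higher (7.41%, close to the 6.51% of all probe sets), with medians of -0.40 and, after loess, -0.39. AT3G58510 had 4.38, 4.93 and 5.10 with CSP1 and 8.59, 8.16 and 8.23 on polysomes. It was low on every CSP1-IP array, by 3.52 (SE 0.29, limma adjusted p = 0.000539), and its paralog AT2G42520 differed by -2.30. AT2G45810 differed by -2.32 and lost its call without polysomal array 1 or 2. The higher ones were AT2G33730, whose yeast relative acts in the spliceosome, with 1.59, and AT3G16840 with 1.21. After loess 6 of the helicases were called lower and 2 higher, against 6.63% and 6.84% of all probe sets. AtRZ-1c, a glycine-rich RNA-binding protein with a zinc knuckle, had 6.42, 6.50 and 4.99 with CSP1 and 8.43, 8.70 and 8.84 on polysomes. Its difference was -2.69 (SE 0.41, limma adjusted p = 0.0033), and it was the 1 called member of the 2 cold shock domain or glycine-rich RNA-binding genes measured by name.

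A list of 13 measured SR, G-patch, SWAP and PWI genes, the protein classes of many splicing factors, was also drawn up after the values were seen. In it 6 were called higher (46.2%, against 6.51% of all probe sets) and 1 lower, with a median of 1.03. AT5G55100 and AT2G29210 were already among the 12 highest genes above, so the list is a description only. Besides AT5G55100 and AT2G29210 the higher ones were the G-patch genes AT5G26610 (3.28), AT1G63980 (2.92), TGH (1.83) and AT3G09850 (1.04). AT4G31200 (-1.09) was the lower one. After loess the counts were again 6 higher and 1 lower, against 6.84% and 6.63% of all probe sets. In CSP1-FH they were 5 and 2, against 7.2% and 11.4%.

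Few cold-response genes were measured by name, 5 of 19 listed for cold acclimation, 7 of 15 for late embryogenesis abundant proteins and 1 of 11 for the clock, so shares are not read from them. Of the 5 genes of the CBF regulon and cold acclimation, the dehydrin gene LTI30 was called lower, with 11.28, 11.58 and 11.36 against 13.04, 12.78 and 12.33 on polysomes. Its difference of -1.31 (SE 0.27, limma adjusted p = 0.0123) lost its call after each rescaling and without polysomal array 1 or 2. COR15A (-0.57), COR47 (-0.57), COR15B (-0.56) and STZ (1.14) did not pass the test. Of 7 late embryogenesis abundant proteins and dehydrins, the small dehydrin gene AT1G54410 was called higher. It had 12.87, 12.10 and 13.08 with CSP1 and 11.49, 10.58 and 11.20 on polysomes. The difference was 1.60 (SE 0.35, limma adjusted p = 0.0152), 2.49 after loess, and lost its call without polysomal array 2. The clock gene GI, the 1 clock gene measured by name, was lower by 1.54 (SE 0.30, limma adjusted p = 0.00864) and was not called after rescaling or in CSP1-FH.

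Of 9 tubulin and actin genes of the cytoskeleton 7 were called lower (77.8%, against 12.8% of all probe sets and 53.4% in the highest bin, which holds the list's median level) and none higher. The median was -1.79, or -1.08 with 4 lower calls after loess, when 25.4% of the highest bin were called lower. TUA6 had 6.48, 7.06 and 5.64 with CSP1 and 9.95, 8.80 and 9.77 on polysomes. The groups were apart by 3.12 (SE 0.43, limma adjusted p = 0.00238, lower with CSP1). TUA1 followed at -2.80 and ACT11 at -2.51. These genes are close paralogs, so cross-hybridisation between them was not separated.

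Of 27 expansins and xyloglucan endotransglucosylase/hydrolases, which remodel cell walls, 4 were called lower (14.8%, close to the 12.8% of all probe sets), with EXPA4 at -3.38, EXPA16 at -1.65 and EXPA9 at -1.59. EXPA16 lost its call after loess of all arrays, quantile normalization, and without polysomal array 1 or 2 or CSP1-IP array 1. After loess 3 of the 27 genes were called lower and 0 higher, against 6.63% and 6.84% of all probe sets. EXPA4 had 2.60, 2.96 and 4.45 with CSP1 and 7.10, 6.51 and 6.55 on polysomes. Of 48 UDP-glycosyltransferases, which attach sugars to hormones and other small molecules, 11 were called lower (22.9%, against 12.8%) and 1 higher. After loess 6 were called lower and 0 higher, against 6.63% and 6.84% of all probe sets. UGT74D1 (-2.61), UGT72E1 (-2.30) and UGT72B3 (-2.27) were lowest, and UGT76D1 (1.00) was the higher one. Of 9 proteasome subunits 4 were called lower (44.4%, against 12.8% of all probe sets and 38.3% in the bin of the list's median level), among them RPN11 (AT5G23540) at -1.74, RPN7 (AT4G24820) at -1.76 and the alpha-type subunit AT1G79210 at -1.68. After loess 1 proteasome gene, AT5G23540, remained called. AT4G24820 also lost its call without polysomal array 1 or 2 or CSP1-IP array 1 or 3, and AT1G79210 without polysomal array 1 or 2.

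In the other lists few or no members passed. The heat shock list held 1 lower call of 9 (11.1%), AT3G09440 at -1.06, which was not called after rescaling. The pentatricopeptide repeat list held 1 of 2 (PPR336, -2.46). The cytochrome P450 list held 1 of 23 (4.35%), CYP71B5 at -1.04, which was not called after rescaling, when CYP71B6 was called higher at 1.43. Of all probe sets 12.8% were called lower. In the deposited values no member passed among 9 histones (AT2G28720 at -0.85 and HTB2 at 0.61), 7 WRKY genes (WRKY53 at 1.47 and WRKY20 at -0.49), 7 bHLH genes (bHLH115 at 1.39 and BHLH101 at 0.39), 7 auxin-responsive genes (IAA34 at 0.81 and IAA29 at 0.61) and 4 flavonoid genes (DFR at 0.92 and AT4G14090 at 0.63). The same held for the 2 defensin genes PDF1.2b (0.82) and PDF1.2 (0.01), for NAC014 (-0.07), for CEG, an F-box gene (0.51), and for the zinc finger gene STZ. Of all these lists without a call, 1 gene was called after loess, bHLH115 at 2.00 (limma adjusted p = 0.0249). In CSP1-FH bHLH115 (1.80) and bHLH34 (0.89) were called higher and PDF1.2 (-1.67) lower.

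Of the cell type markers only some of guard cells and the trichome gene TRY were measured by name. None of these was called in the deposited values, and AT1G22690 (1.28) was called higher after loess. The 4 guard cell markers measured by name, with FMA (-0.14), MUTE (0.31), SPCH (0.74) and AT1G22690 (0.48), had summed levels of 20.2 to 21.3 on CSP1-IP arrays and 18.5 to 19.9 on polysomal arrays. The trichome gene TRY differed by 0.90 and was not called. No member of the AP2/ERF, MYB and receptor-like kinase lists, or of the phloem, mesophyll, root and inflorescence marker lists, was measured under a name. Leaf identity rests here on genes such as RCA, at 13.31 to 13.57 on the polysomal arrays.

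The same contrast in cold CSP1-FH, which shares no array with HF-RPL18, called 1637 probe sets higher (7.20%) and 2603 lower (11.4%), together 18.6%. Of the 1480 higher calls of HF-RPL18, 1441 had the same sign in CSP1-FH and 707 were called, which is 47.8% of the HF-RPL18 calls and 43.2% of the CSP1-FH calls. Of the 2916 lower calls, 2894 had the same sign and 1976 were called, 67.8% and 75.9% of the respective lists. Over all probe sets 60.3% of differences were positive in CSP1-FH. After loess CSP1-FH had 1802 higher (7.92%) and 1672 lower calls (7.35%). With both lines after loess, 1070 higher and 923 lower calls were shared. No probe set was called in opposite directions in these fits. Across probe sets the differences of the lines correlated at 0.854, and at 0.827 after loess. Both lines share the RNA pools' technical differences, including the 3′ excess.

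A test of the difference between the lines called no probe set by limma (771 had an unadjusted p below 0.05), and 18 were called when all 38 arrays shared the spread. The lines had 3 and 2 arrays per pool, and the result does not show that they are alike.

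**Figure D4:**
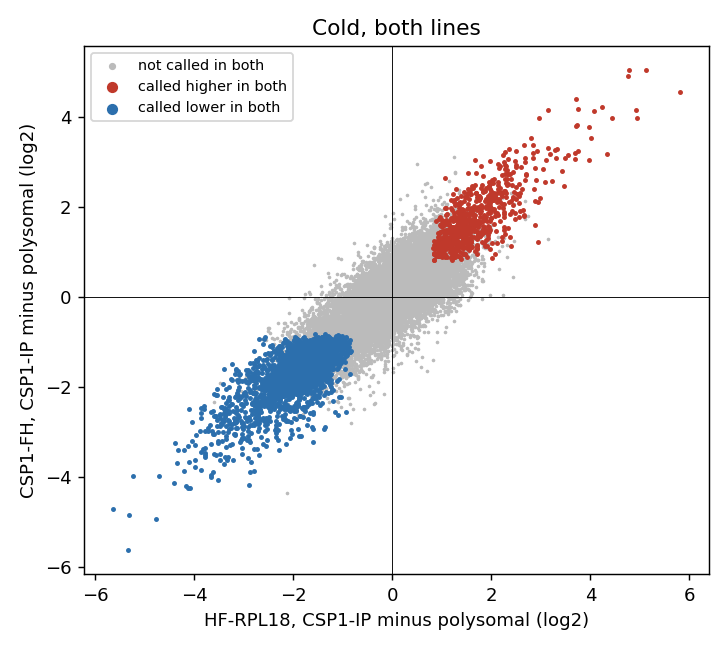
CSP1-IP minus polysomal difference (log2) of each probe set in cold HF-RPL18 against cold CSP1-FH, lines with no shared arrays. Red points (707) were called higher and blue points (1976) lower in both lines.

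Whether the representation with CSP1 differed between cold and non-stress plants was tested as a difference of differences over 12 HF-RPL18 arrays. It called 6 probe sets (0.0264%), 2 higher in cold (0.00879%) and 4 lower (0.0176%), with the same numbers after loess, and 2430 (10.7%) had an unadjusted p below 0.05. AT2G15880 was one of the higher ones: its excess with CSP1 was 5.81 in cold and 2.08 in non-stress plants, a change of 3.73 (SE 0.52, limma adjusted p = 0.0314). On non-stress CSP1-IP arrays it read 4.61, 5.48 and 3.91, all below the cold CSP1-IP arrays. AT3G15770 was one of the lower ones, with differences of -0.07 in cold and 2.01 in non-stress plants, a change of -2.08 (SE 0.31, limma adjusted p = 0.0485). The number of calls was unstable, from 1 to 219 when single arrays were left out.

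Plastid-encoded genes stood out by their common direction in that comparison, although none of the 69 was called. Their median difference was -0.24 in cold and -2.09 in non-stress HF-RPL18. For 68 of 69 genes, psaA being the exception, the cold difference was the higher one, as it was for 11832 of all 22746 probe sets. The median change was 1.62, against 0.03 over all probe sets, and 1.87 after loess. These genes were read on the same 12 arrays, so they are not separate replicates of the cold treatment. An unadjusted p below 0.05 was reached by 44 of the 69, against 10.7% of all probe sets. With the spread shared by all 38 arrays 7 of them were called higher and none lower, against 1.25% and 1.82% of all probe sets. The array medians of the list were 7.85, 7.48 and 7.07 for cold and 6.67, 6.21 and 5.56 for non-stress CSP1-IP RNA. These CSP1-IP groups did not overlap. For polysomal RNA the medians were 8.26, 7.88 and 8.57 in cold and 9.15, 8.17 and 9.20 in non-stress plants, with overlap. The largest change of the 69 was that of ndhK at 2.82 (SE 0.65, limma adjusted p = 0.191). In CSP1-FH the list medians were -0.46 in cold and -0.82 in non-stress plants, and the cold CSP1-IP arrays read 5.59 and 7.48, so that they enclosed the non-stress ones at 5.64 and 6.03.

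Cytosolic ribosomal protein genes mostly had the opposite sign, as did other lists. The cold difference was the higher one for 8 of 70 large-subunit and 7 of 48 small-subunit genes, with median changes of -0.74 and -0.51. None was called, and after loess these medians were -0.48 and -0.39. Nuclear respiratory chain probe sets (6 of 34 higher in cold), stalk (1 of 13), proteasome (0 of 9) and tubulin and actin genes (2 of 9) had the same direction. Their median changes were -0.32, -0.58, -0.58 and -0.62, in that order, and -0.06, -0.34, -0.35 and -0.35 after loess. With loess the median over all probe sets was -0.03, so little of the respiratory chain change remained. Nuclear photosynthesis genes were nearer to even (5 of 12). Over all probe sets 11832 of 22746 were higher in cold. These lists were not compared with probe sets of like level for this change. Levels were less spread out on cold HF-RPL18 CSP1-IP arrays (SD 1.83 to 1.97) than on non-stress ones (2.07 to 2.14). The part of this narrower spread in the changes was not tested.

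**Figure D5:**
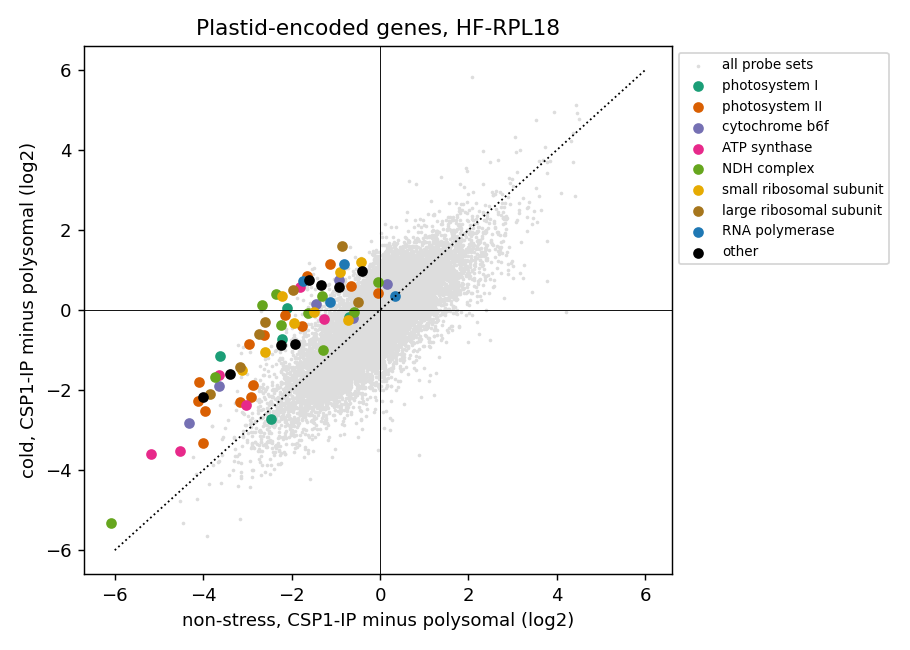
CSP1-IP minus polysomal difference (log2) in cold against non-stress HF-RPL18 for 69 plastid-encoded genes, coloured by complex, over all probe sets in grey. The dotted line marks equal differences, and 68 of the 69 genes lie above it, while none passed the test of the change.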

How the data were processed

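The authors deposited log2 expression values per probe set of Affymetrix ATH1 arrays, made with RMA per the submitters' processing notes. No source used here states the RMA version or the set of arrays it was run on. Arrays have no sequencing depth, and their number limits the precision. The spread over probe sets differed between pools (SD 1.83 to 1.97 on CSP1-IP and 2.22 to 2.28 on polysomal arrays), so rescaled values were also tested.

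Groups and replicates came from the sample titles, and no deposited column was left unused. Of 22810 probe sets 64 controls were left out of the tests. A single gene symbol was listed for 13513 of the 22746 that were tested (59.4%), more than 1 for 503, and 8730 had no entry. Unlisted probe sets keep their ID. Gene names were updated through RefSeq gene IDs (13436 matched, and 18 mitochondrial ones by symbol).

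Tests used limma 3.58.1 in R 4.3.3 (lmFit, eBayes, 2-sided, Benjamini-Hochberg over 22746 probe sets) on the arrays of each comparison only, because CSP1-IP arrays vary more than the others. On simulated data with this design, 67 of 100 probe sets changed by 2 and 88 of 100 changed by 4 were called, with 17 false calls. The simulation changed few probe sets, in both directions alike, and held no shift with level. It therefore does not give the error of the calls above. Members, gene lists and tests were chosen with earlier results of these data known. The annotation holds no product text, so family lists were built from gene IDs, symbols and synonyms and are partial. Only probe sets with 1 annotated gene were named. Named genes were the 12 largest called differences in each direction with separate groups and the same sign after loess, then per list the 3 largest called members, or the 2 largest where none was called. Up to 5 named genes per direction came from the cold against non-stress test. Further members named, such as ribosomal protein, plastid, protease and splicing-related genes beyond those, were chosen after their values were seen. Alternatives were cyclic loess, quantile normalisation, a shared spread, array weights, a filter on dim probe sets (level 3.13), an intensity trend, a replicate block and leaving out arrays. No table of sequences came with these data, and none are printed.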

Additional observations from a re-analysis of the deposited data

Results flagged for a closer look

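For 6 probe sets the test of the difference between cold and non-stress plants in the CSP1-IP minus polysomal difference of HF-RPL18 passed the threshold. The change was 3.73 for AT2G15880 and 2.22 for 245748_at, and -2.08 for AT3G15770, -2.37 for 247795_at, -3.01 for 250777_at and -4.26 for 266901_at. The probe set 266901_at read 6.63, 6.91 and 6.71 on the non-stress CSP1-IP arrays and 2.96, 2.66 and 3.01 on the cold ones, with polysomal arrays between 2.47 and 3.03 in both conditions. Its limma adjusted p was 2.04e-05 (12 arrays), and in CSP1-FH the non-stress difference was 0.70 and the cold one -0.03. For 247795_at and 250777_at the polysomal arrays moved, from 4.47 to 5.18 in non-stress to 6.60 to 6.89 in cold plants, and from 5.4 to 5.65 to 9.46 to 9.81. For 245748_at the polysomal arrays read 6.69 to 6.90 in non-stress and 3.00 to 3.62 in cold plants. The 4 numbered probe sets are not named in the annotation. Groups of 3 arrays were not screened for outlying arrays.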

How the results depend on the processing

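Of 90 named probe sets 71 were called, and 52 of these were called in every one of 14 alternative settings, among them the 24 with the largest differences; 58 were called after leaving out each array in turn. No named gene changed sign while called. Loess of all arrays ended 16 calls, loess of the compared arrays 11 and quantile normalization 13; the cause was not tested. Total calls were 2782 with quantile normalization, 10819 when all 38 arrays shared the spread (6089 higher, 4730 lower) and 2057 to 5548 without single arrays (441 to 2231 higher, 1616 to 3317 lower). Lower calls numbered 1509 and 1701 after loess of all or of the compared arrays and 1492 with quantile normalization. In CSP1-FH leaving out 1 array gave 1321 to 7346 calls, with the lone array of a pool assumed to vary like the other pool. The cold against non-stress test gave 3 calls with quantile normalization, 697 with the shared spread, 2 with array weights, 3 with an intensity trend and 1 to 219 without single arrays (219 without cold CSP1-IP array 2, 20 without non-stress CSP1-IP array 2). The line test gave 18 calls with the shared spread.

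List medians changed sign after loess of all arrays, loess of the compared arrays and quantile normalization, in that order, for small-subunit ribosomal proteins (0.38, 0.37, 0.35), stalk proteins (0.46, 0.32, 0.28), plastid-encoded genes (0.0234, 0.15, 0.0315), translation factors (0.48, 0.39, 0.35), histones (0.28, 0.16, 0.13), respiratory chain genes (0.31, 0.16, 0.13) and expansins and their like (-0.11, -0.0732, -0.0081). With loess of all or of the compared arrays they did so for mitochondrion-encoded genes (-0.0192, -0.0058) and cold acclimation genes (0.32, 0.0543). Without single arrays the small-subunit median ranged from -0.3044 to 0.0911 (the latter without CSP1-IP array 3). The expansin median ranged from -0.17 to 0.1231, below 0 without CSP1-IP array 1 or 3 or polysomal array 3, and was -0.15 relative to all probe sets. The WRKY median ranged from -0.0872 to 0.25, above 0 without any array but polysomal array 2.

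Replicate numbers are shared between pools, but same-numbered cold HF-RPL18 arrays deviated together only weakly (correlations of 0.0449, 0.101 and 0.143), so they were not treated as pairs. With the replicate block there were 4945 calls in HF-RPL18, 5647 in CSP1-FH, 14 in the cold against non-stress test and 0 in the line test. In deviations from the group means, each cold HF-RPL18 CSP1-IP array correlated best with the polysomal array of its own number, a hint from the data and not the design. Dim probe sets near background limit the precision of small levels.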

Other observations

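Few RNAs were bright with CSP1 and dim in the other pools. A level above 7 on all 3 cold CSP1-IP arrays with levels below 5 on all 3 polysomal and all 3 total RNA arrays of HF-RPL18, limits chosen after the values were seen, was met by 4 probe sets: AT2G15880, AT5G51620 and the unnamed 245638_s_at and 264507_at. All 4 were also called higher in CSP1-FH, by 4.57, 2.81, 4.15 and 4.40. In non-stress plants the CSP1-IP arrays read 7.34 to 8.57 for 245638_s_at and 9.54 to 9.91 for 264507_at, so these were bright there too, while AT2G15880 read 3.91 to 5.48.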
